A study of Homo sapiens with 3 samples.

Results

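The sirtuins are a family of enzymes that remove acetyl and other acyl groups from lysines of proteins, and they consume NAD+ to do so. The human family has 7 genes, SIRT1 to SIRT7, and all 7 were examined here on the arrays of PLC-PRF-5 cells, an established human hepatoma line. Every probe whose symbol in the platform annotation was one of these names was taken, which gave 12 of the 47323 probes on the array and 7 of 20046 named genes. SIRT5 had 4 probes, SIRT2 and SIRT3 had 2 each, and SIRT1, SIRT4, SIRT6 and SIRT7 had 1 each. The study names SIRT7 among candidate targets of sorafenib. The arrays measured transcripts and not binding.

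The cells were treated for 24 h with the sorafenib probe, with sorafenib, or with DMSO, the solvent of both compounds, and each treatment was measured on 1 array. Sorafenib is a multikinase inhibitor, and in the sorafenib probe a terminal alkyne and a photoaffinity group were attached to it. Sample labels give a dose of 10 μM for both compounds, whereas the treatment protocol of the same samples gives 50 μM, and either way the compounds shared dose and time. With 1 array per group there were no replicates, so no p-value between groups is given and a difference is described by its size. The intensities came from a table from which the background had been subtracted, with a mean of 164 for the sorafenib probe, 159 for sorafenib and 183 for DMSO. Before log2 values were taken, limma's normexp correction and quantile normalization were applied, and since an offset of 16 was added, dim probes show smaller differences than they have. A probe was called above background where its detection p-value, which sets it against the negative control probes of its array, was under 0.01. By this limit 32.8% of the probes were above background with the sorafenib probe, 32.7% with sorafenib and 32.3% with DMSO. Of 10 hepatocyte markers examined, 4 were above background on all 3 arrays (ALB, KRT8, KRT18 and FOXA2), while AFP, APOA1, APOB, SERPINA1, TTR and TF were above background on none. The largest log2 differences from DMSO among them were -0.25 with the sorafenib probe and -0.18 with sorafenib for FOXA2, 0.04 and -0.31 for ALB, and -0.03 and 0.23 for KRT18. Their summed normalized intensity was 4914 with the sorafenib probe, 5062 with sorafenib and 5444 with DMSO. Of 17 markers of other cell types, 6 were above background on at least 1 array. The sum over this list was 4183 with the sorafenib probe, 3723 with sorafenib and 3741 with DMSO, but single members differed in opposite directions. The monocyte marker CD14 had log2 differences of 0.56 with the sorafenib probe and 0.75 with sorafenib, the stellate cell and muscle actin gene ACTA2 had -0.53 and -0.63, and the bile duct keratin gene KRT19 had -0.48 and -0.40, each above background on all 3 arrays. The other measured genes of the list went against these. The bile duct keratin gene KRT7 had 0.33 with the sorafenib probe and 0.07 with sorafenib, and the leukocyte marker CD68 had -0.26 and -0.17. The stroma gene COL1A1, above background with the sorafenib probe alone, was at least 1.05-fold higher there than with DMSO. No shift of a cell type can be read from these genes. The endothelial markers PECAM1, VWF and CDH5 and the leukocyte marker PTPRC were above background on none. Their part in the values below was not tested.

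Sirtuins differ in where they act and in the acyl groups they prefer. SIRT1, SIRT6 and SIRT7 are found mainly in the nucleus, SIRT2 mainly in the cytosol, and SIRT3, SIRT4 and SIRT5 in mitochondria. In the liver SIRT1 and SIRT3 are known for adapting lipid and glucose metabolism to fasting, SIRT6 for silencing chromatin at glycolytic genes, and SIRT7 for its role at ribosomal RNA genes.

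Transcripts of 4 of the 7 sirtuin genes were measurable in these cells. At least 1 probe was above background for SIRT1, SIRT2, SIRT5 and SIRT7, and 3 of these genes, SIRT1, SIRT5 and SIRT7, were above background on all 3 arrays. SIRT3, SIRT4 and SIRT6 were above background on none. Of all 20046 named genes, 10396 were above background on at least 1 array and 8750 on all 3, so the sirtuin counts lie near the shares of the array. Of all 47323 probes, 17427 were above background on at least 1 array. Of the 12 probes, 5 were above background with the sorafenib probe, 5 with sorafenib and 4 with DMSO, and 7 were above background on no array. These 7 dim probes had subtracted intensities from -2.14 to 10.98 with the sorafenib probe, from -11.04 to 13.1 with sorafenib and from -9.2 to 12.4 with DMSO, where the lowest probe above background had 17.1 with the sorafenib probe, 17.6 with sorafenib and 20.8 with DMSO. Differences in SIRT3, SIRT4 and SIRT6 were therefore not detectable here, which does not show that the genes are silent.

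Promoters listed for 3 of the measured genes are shown, and they were searched for 3 motifs bound by factors of metabolic and stress control. Where the transcripts start in these cells was not measured. RefSeq's table for GRCh38.p14 holds promoters for 6 of the 7 sirtuin genes, each of 300 bases around a start site, and SIRT7 has no entry there. The promoter of SIRT1 lies at chr10:67884406-67884705 on the plus strand, that of SIRT2 at chr19:38899569-38899868 on the minus strand, and the first of the listed promoters of SIRT5 at chr6:13574351-13574650 on the plus strand. Capitals mark matches on either strand to the E-box CACGTG, to the cAMP response element TGACGTCA, or to TGATGNAA, the core of the element bound by the stress factor ATF4 with its C/EBP partners, where N is any base.
SIRT1 promoter: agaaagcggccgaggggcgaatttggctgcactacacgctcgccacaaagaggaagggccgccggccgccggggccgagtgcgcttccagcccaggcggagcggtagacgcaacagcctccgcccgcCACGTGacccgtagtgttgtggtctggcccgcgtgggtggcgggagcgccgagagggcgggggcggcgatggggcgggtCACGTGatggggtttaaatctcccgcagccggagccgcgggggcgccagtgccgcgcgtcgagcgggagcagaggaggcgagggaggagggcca
SIRT2 promoter: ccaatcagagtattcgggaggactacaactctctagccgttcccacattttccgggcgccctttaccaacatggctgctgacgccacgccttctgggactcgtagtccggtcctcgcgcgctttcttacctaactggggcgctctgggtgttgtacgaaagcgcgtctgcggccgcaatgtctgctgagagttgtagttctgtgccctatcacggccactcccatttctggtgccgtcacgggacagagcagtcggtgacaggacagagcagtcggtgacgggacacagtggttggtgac
SIRT5 promoter: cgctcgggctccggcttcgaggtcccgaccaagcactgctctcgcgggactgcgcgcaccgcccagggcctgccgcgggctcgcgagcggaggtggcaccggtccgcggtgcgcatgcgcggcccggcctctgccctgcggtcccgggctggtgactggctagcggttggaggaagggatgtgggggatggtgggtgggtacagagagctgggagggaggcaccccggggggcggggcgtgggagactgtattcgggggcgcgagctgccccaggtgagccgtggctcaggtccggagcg
The SIRT1 promoter held 2 E-boxes, and an E-box was found in 7.26% of 35116 promoters of this length. The SIRT2 and SIRT5 stretches held none of the 3 motifs. Over all 9 listed sirtuin promoters, the only other match was 1 cAMP response element in a promoter of SIRT4, a motif found in 1.85% of all promoters, and none held TGATGNAA, found in 3.62%. A match is a run of letters and no more, and a missing match says only that these letters do not occur in the window.

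**Figure D1:**
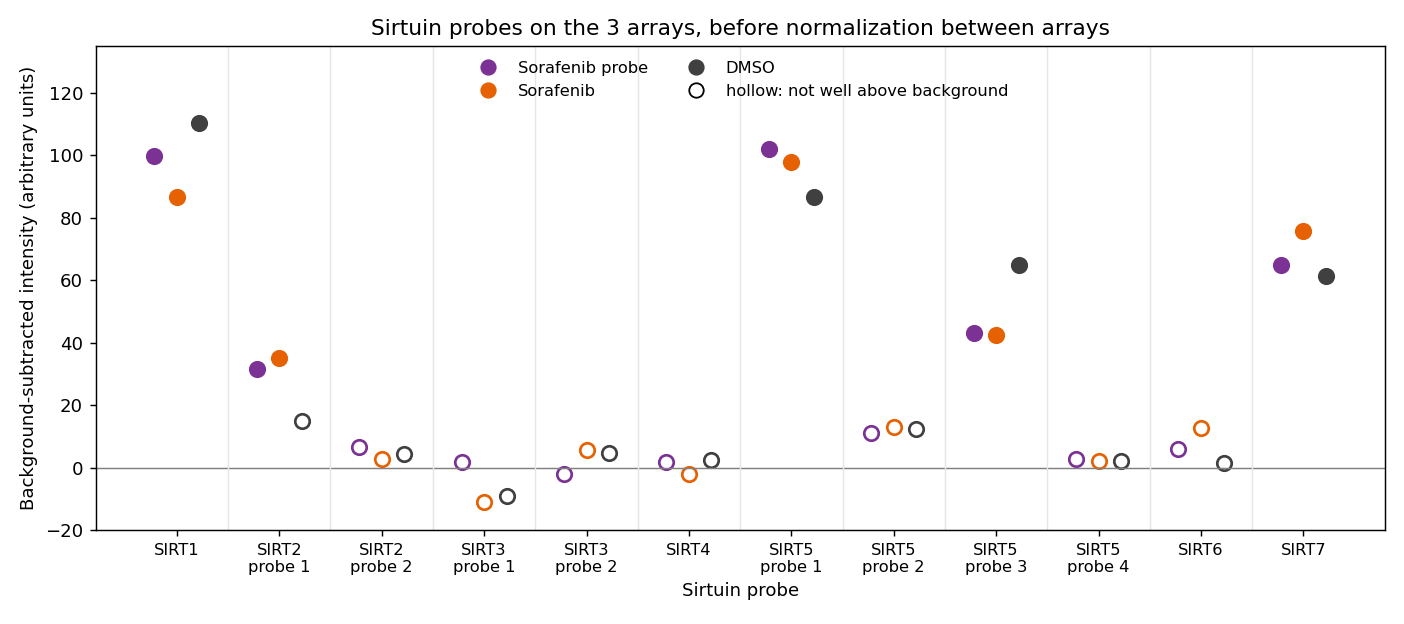
Background-subtracted intensity in arbitrary units, before normalization between arrays, of each of the 12 sirtuin probes on the arrays of the sorafenib probe (purple), sorafenib (orange) and DMSO (dark grey). Filled points are above background at a detection p-value under 0.01 and hollow points are not. SIRT2 (probe 1) is filled with both compounds and hollow with DMSO. Of the SIRT5 probes, 2 place DMSO on opposite sides of the compounds.

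SIRT7, a nuclear deacetylase of the nucleolus, was higher with sorafenib than with DMSO and lay between them with the sorafenib probe. Its single probe (ILMN_2077858) had normalized intensities of 83.5 with the sorafenib probe, 95.7 with sorafenib and 72.1 with DMSO. Before normalization between arrays the same probe had 64.8 with the sorafenib probe, 75.7 with sorafenib and 61.3 with DMSO, so the order of the 3 arrays was the same. Against DMSO this was a log2 difference of 0.21 (1.16-fold) with the sorafenib probe and of 0.41 (1.33-fold) with sorafenib. Among the 8750 genes that every array placed above background, 20.5% differed from DMSO by a more positive value with the sorafenib probe, and 6.70% did so with sorafenib. With these genes cut into 3 equal groups by mean level, SIRT7 lay in the dimmest, where the middle 95% of the differences between sorafenib and DMSO ran from -0.61 to 0.63, a range that holds its value. More cells with the transcript and more transcript per cell cannot be told apart in bulk RNA.

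The sorafenib probe and sorafenib differed in SIRT7 by a log2 value of -0.20, that is, the level with the sorafenib probe was 1.15-fold lower. Between these 2 arrays the middle 95% of genes in the dimmest group lay between -0.51 and 0.49, and 13.2% of all genes above background had a more negative difference than SIRT7. With 1 array each, no interval of this difference can be given, and a value inside the common range does not show that the compounds act alike.

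SIRT2, a mainly cytosolic deacetylase that acts on tubulin and on metabolic enzymes, had the largest difference from DMSO among the sirtuins above background. Its brighter probe (ILMN_1723494) had subtracted intensities of 31.6 with the sorafenib probe, 35.1 with sorafenib and 14.9 with DMSO. The detection p-value was 0.0013 with each compound but 0.0364 with DMSO, so that on the DMSO array it was not well above background. Its normalized intensities were 48.6 with the sorafenib probe, 52.6 with sorafenib and 29.6 with DMSO, and the measured log2 differences from DMSO were 0.72 and 0.83. With DMSO set to the lowest level that passed the detection limit there, SIRT2 was at least 1.40-fold higher with the sorafenib probe and at least 1.51-fold higher with sorafenib. On the log2 scale these bounds were 0.48 and 0.60, both within the middle 95% of the dimmest group of genes above background on all 3 arrays (up to 0.65 and 0.63). The measured differences, which use a DMSO value not well above background, lay beyond those limits. SIRT2 is not among those genes, because it was above background with the compounds alone. Its place beside their limits is therefore no measure of how unusual the difference is. A lower bound inside the range does not show that the difference lies inside it. Between the sorafenib probe and sorafenib the log2 difference was -0.11, with both arrays above background.

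The size of the SIRT2 difference depended on how background was treated. In the table that the authors quantile normalized, without any offset, the log2 differences of this probe were 1.29 with the sorafenib probe and 1.45 with sorafenib, whereas an offset of 50 gave 0.38 and 0.45. The second SIRT2 probe (ILMN_2398711), annotated to another transcript of the gene, was above background on no array, with subtracted intensities of 6.62 with the sorafenib probe, 2.61 with sorafenib and 4.27 with DMSO. It gives no second reading of the difference. SIRT2 entered the set of measured genes through the arrays of the compounds alone, so its part in any count over the sirtuins follows from the filter.

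The SIRT5 gene, whose mitochondrial enzyme removes succinyl, malonyl and glutaryl groups, gave opposite readings from its probes. The brighter probe (ILMN_1683059) had normalized intensities of 122 with the sorafenib probe, 119 with sorafenib and 94.7 with DMSO, higher with both compounds by log2 differences of 0.36 (1.29-fold) and 0.33 (1.26-fold). The dimmer probe (ILMN_1799598) had 60.8 with the sorafenib probe, 60.2 with sorafenib and 75.4 with DMSO, and was lower with both compounds by log2 differences of -0.31 and -0.32. Both probes were above background on all 3 arrays, with a detection p-value of 0 on each, and the annotation assigns both to the same transcript of SIRT5. The mean of the 2 probes gave log2 differences of 0.03 with the sorafenib probe and 0.01 with sorafenib, so no direction can be given for the gene as a whole.

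The gap between the SIRT5 probes was wide for probes of 1 gene, although opposite signs were common. Among 1979 genes with at least 2 probes above background on all 3 arrays, the brightest and the second probe differed in sign in 37.2% with the sorafenib probe and in 36.4% with sorafenib. The median gap between their log2 differences was 0.18 with the sorafenib probe and 0.19 with sorafenib, against 0.67 and 0.66 for SIRT5. A gap at least as wide was found in 3.28% and 3.84% of these genes. By a rule chosen after the values of SIRT5 were seen, 7 of the 1979 genes (0.354%) had 1 probe at least 1.2-fold higher and the other at least 1.2-fold lower with both compounds. Both compounds are set against the same DMSO array, so a deviation of that array alone enters each pair of differences. Between the sorafenib probe and sorafenib the SIRT5 probes gave 0.03 and 0.01.
The other SIRT5 probes (ILMN_1738983 and ILMN_2291644), which the annotation assigns to a different transcript, were above background on no array. Their subtracted intensities were 10.98 and 2.64 with the sorafenib probe, 13.1 and 2.10 with sorafenib and 12.4 and 2.13 with DMSO.

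**Figure D2:**
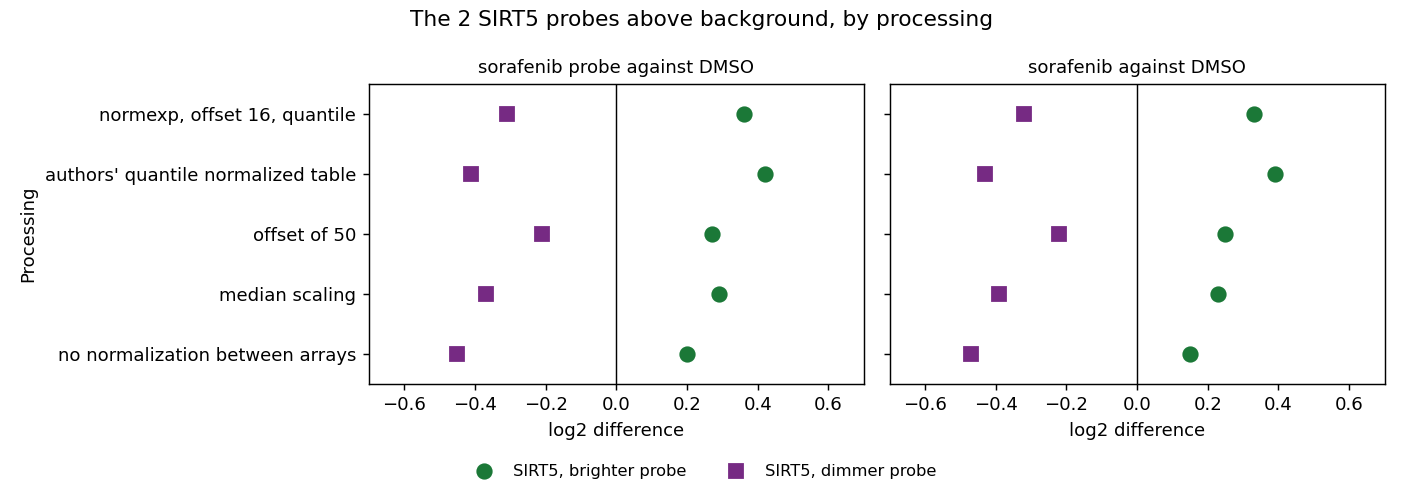
Log2 difference from DMSO of the brighter (green circles) and the dimmer (purple squares) SIRT5 probe, for the sorafenib probe on the left and sorafenib on the right, with 1 row for each way of processing the intensities. The brighter probe lies above 0 and the dimmer probe below 0 in all 5 rows of both panels.

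SIRT1, the nuclear deacetylase that acts on p53, FOXO factors and PGC-1α, had small differences from DMSO. Its single probe (ILMN_1739083) had normalized intensities of 119 with the sorafenib probe, 107 with sorafenib and 117 with DMSO. Against DMSO the log2 difference was 0.03 with the sorafenib probe and -0.12 with sorafenib, and 67.9% of 8750 genes had a more positive difference than SIRT1 with sorafenib. The sign with the sorafenib probe depended on the scaling of the arrays, since it was -0.05 with median scaling and -0.13 without normalization between arrays. Under these settings the median of all genes was -0.07 and -0.16, so SIRT1 stayed slightly above that median. The sorafenib probe and sorafenib differed by 0.16, with 18.8% of genes at a more positive value. SIRT1 and SIRT7 were thus ordered in opposite ways on the arrays of the compounds, SIRT1 higher and SIRT7 lower with the sorafenib probe than with sorafenib, each by less than the middle 95% of genes spanned.

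SIRT6, a nuclear deacetylase and mono-ADP-ribosyltransferase, came nearest to the detection limit among the genes above background on no array. Its probe (ILMN_1654246) had subtracted intensities of 5.80 with the sorafenib probe, 12.6 with sorafenib and 1.43 with DMSO, with detection p-values of 0.2, 0.0273 and 0.3805. At a limit of 0.05 it would count as above background with sorafenib alone. SIRT3, the main deacetylase of the mitochondrial matrix, had 1.65 and -2.14 by its probes (ILMN_1724372 and ILMN_1733985) with the sorafenib probe, -11.04 and 5.69 with sorafenib, and -9.20 and 4.81 with DMSO. SIRT4, a mitochondrial enzyme of weak deacetylase activity, had 1.63 with the sorafenib probe, -2.07 with sorafenib and 2.51 with DMSO (ILMN_1657868). None of these values is told apart from background, so no fold is given for them.

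**Figure D3:**
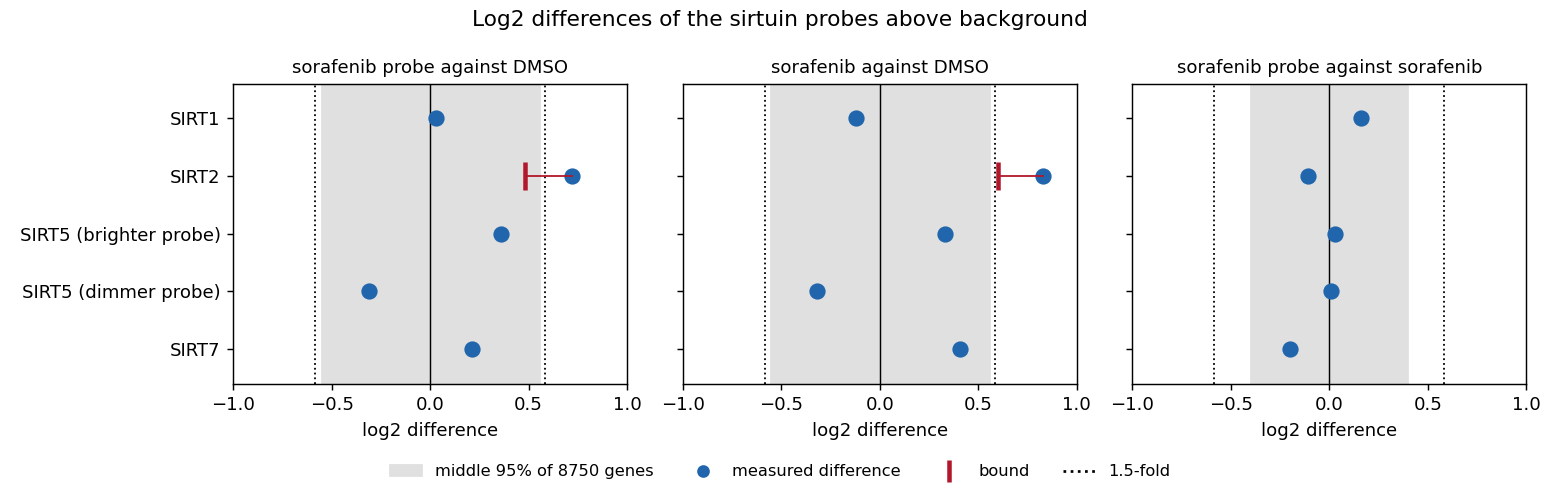
Log2 differences of the 5 sirtuin probes above background (blue points) for the sorafenib probe against DMSO, sorafenib against DMSO and the sorafenib probe against sorafenib. The grey band holds the middle 95% of the differences of 8750 genes, dotted lines mark 1.5-fold and the red bar is the lower bound for SIRT2, whose DMSO value was not well above background. In the panels against DMSO the measured points of SIRT2 lie beyond the band, while its bound is 0.48 with the sorafenib probe, inside the band, and 0.60 with sorafenib, just beyond it. SIRT2 is not among the 8750 genes, since it was above background with the compounds alone. Every other point lies inside the band, as does every point between the compounds.

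Counted over genes, with the brightest probe of each, 0 of the 4 measured sirtuins were at least 1.5-fold higher with the sorafenib probe and 1, SIRT2, with sorafenib. The shares of all genes past the same limit were 2.39% with the sorafenib probe and 2.23% with sorafenib. None of the 4 was 1.5-fold lower with either compound, where 2.05% and 2.01% of all genes were. At a log2 difference of 0.32, SIRT2 and SIRT5 counted as higher with the sorafenib probe (11.1% of all genes), and SIRT2, SIRT5 and SIRT7 with sorafenib (11.1% of all genes). None counted as lower at that limit, where 11.0% of all genes did with the sorafenib probe and 11.4% with sorafenib. No sirtuin reached 2-fold, which 0.259% of all genes did upward and 0.169% downward with the sorafenib probe, and 0.169% upward and 0.119% downward with sorafenib. The SIRT5 call holds for the brighter probe alone, and SIRT2 passed the filter through the compounds, so SIRT7 with sorafenib is the 1 call of these free of both limits, and it falls under 0.32 with an offset of 50 (0.29) and without normalization between arrays (0.25). Without that normalization the median of all genes with sorafenib was itself -0.19. The median log2 difference over the 4 genes was 0.29 with the sorafenib probe and 0.37 with sorafenib, where over all 10396 genes it was 0.00 with each. These medians take SIRT5 at its brighter probe, and with the mean of each gene's probes above background they were 0.12 and 0.21. Over the 3 genes above background on all arrays it was 0.21 and 0.33, again with SIRT5 at its brighter probe, which itself gave the 0.33. At the mean of its probes SIRT5 had 0.03 with the sorafenib probe and 0.01 with sorafenib. SIRT1 had 0.03 and -0.12, and SIRT7 had 0.21 and 0.41. With SIRT2 left out and SIRT5 at that mean, SIRT7 alone of the 3 lay clearly above 0. Between the sorafenib probe and sorafenib no sirtuin passed 1.5-fold in either direction, where 0.736% of all genes were higher and 0.547% lower by as much, and the median was -0.04. Nor did any pass a log2 difference of 0.32 (5.29% of all genes higher and 5.07% lower) or 2-fold (0.0199% higher and 0.0298% lower).

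Genes whose pattern over the 3 arrays was most like that of SIRT7 were CNNM3, NME1-NME2, MAX, C8orf82 and POR, taken by the distance of their 2 log2 differences from DMSO to those of SIRT7. Their distances ran from 0.0067 to 0.0173, and 52 of 8749 genes lay within 0.05, so with only 3 arrays the likeness singles out no gene.

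Genes that work with the sirtuins were read from lists drawn up with earlier results of these data known. Of all 10396 genes, 5201 lay below 0 with the sorafenib probe and 5248 with sorafenib, and the counts below 0 in a list stand beside these as a description. At least 1.5-fold higher were 2.39% of all genes with the sorafenib probe and 2.23% with sorafenib, and 2.05% and 2.01% were lower. In lists this short, few or no genes past 1.5-fold go with such shares, so these counts are a description too. Among the zinc-dependent histone deacetylases, the other large deacetylase family, 7 of 11 genes were measured, 0 passed 1.5-fold in either direction with either compound, and the medians were 0.02 with the sorafenib probe and 0.00 with sorafenib. HDAC4, which acts with its class in transcriptional repression, had log2 differences of 0.07 and 0.36. HDAC7 had -0.39 and -0.19, and HDAC11 was above background with sorafenib alone, at least 1.16-fold higher than with DMSO. Sirtuins and zinc-dependent deacetylases share no test here, and their medians stand side by side as a description.

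Sirtuins need NAD+ and release nicotinamide, which inhibits them. Of 11 genes of NAD+ synthesis and phosphorylation 7 were measured and 0 passed 1.5-fold, with medians of -0.11 with the sorafenib probe and -0.12 with sorafenib (-0.04 and -0.05 where dim genes take their bounds). Those with the largest differences were NAPRT, the nicotinic acid enzyme (0.26 and 0.19), NMRK1, a nicotinamide riboside kinase (-0.26 with the sorafenib probe and at least 1.48-fold lower with sorafenib), and the mitochondrial NAD kinase gene NADK2, above background with DMSO alone and at least 1.31-fold lower with each compound. Of 12 other genes that use NAD+ or nicotinamide 10 were measured, with medians of -0.03 and -0.06 (-0.07 and -0.01 at the bounds). NNMT, which methylates nicotinamide, was the 1 member past 1.5-fold, with normalized intensities of 310 with the sorafenib probe, 335 with sorafenib and 105 with DMSO (2.95-fold and 3.18-fold higher). CD38, an NAD+ hydrolase, had -0.21 and -0.55, and PARP10 was above background with sorafenib alone, at least 1.05-fold higher.

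For the nuclear sirtuins, 13 of 16 partners and substrates of SIRT1 were measured, 9 of them below 0 with the sorafenib probe and 8 with sorafenib, with medians of -0.15 and -0.15 and 0 past 1.5-fold. The acetyltransferase gene EP300 had -0.52 and -0.56, FOXO1 had -0.53 and -0.36, and the clock gene BMAL1, not well above background with DMSO, was higher by log2 differences of at least 0.26 and 0.20. Of 21 genes of ribosomal RNA synthesis and chromatin that SIRT7 works with, 17 were measured and 0 passed 1.5-fold, with medians of -0.12 and -0.03. RRN3, the initiation factor of RNA polymerase I, had -0.21 with the sorafenib probe and -0.49 with sorafenib, the remodeller gene SMARCA5 had -0.35 and -0.53, and GABPA was above background with DMSO alone and at least 1.33-fold and 1.32-fold lower. Among 13 genes of glycolysis and its control reported as repressed by SIRT6, 12 were measured, 10 lay below 0 with the sorafenib probe and 9 with sorafenib, and the medians were -0.14 and -0.14. PDK4, which restrains pyruvate dehydrogenase, was 1.57-fold and 1.70-fold lower and was the 1 member past 1.5-fold, PFKL had -0.28 and -0.37, and the hexokinase gene HK2 was at least 1.30-fold lower with the sorafenib probe and had -0.31 with sorafenib.

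For the mitochondrial and cytosolic sirtuins, 17 of 20 genes of substrates of SIRT3, SIRT4 and SIRT5 were measured, with medians of 0.06 with the sorafenib probe and -0.07 with sorafenib. SOD2, the manganese superoxide dismutase that SIRT3 activates, was the 1 member past 1.5-fold against DMSO, with normalized intensities of 409, 379 and 203 on the arrays of the sorafenib probe, sorafenib and DMSO (2.01-fold and 1.86-fold higher). MLYCD, malonyl-CoA decarboxylase, had -0.42 with the sorafenib probe and was at least 1.47-fold lower with sorafenib. PPIF, the cyclophilin of the mitochondrial pore, had 0.29 with the sorafenib probe and was at least 1.30-fold lower with sorafenib. Of 13 cytosolic substrates of SIRT1 and SIRT2 11 were measured and 0 passed 1.5-fold, with medians of -0.06 and -0.06. ACLY, the citrate lyase that SIRT2 deacetylates, had -0.24 and -0.39, the checkpoint kinase gene BUB1B had 0.32 and 0.25, and PARD3 had -0.35 and -0.18. The transcript of a substrate says nothing of its acetylation, which the arrays did not measure.

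**Figure D4:**
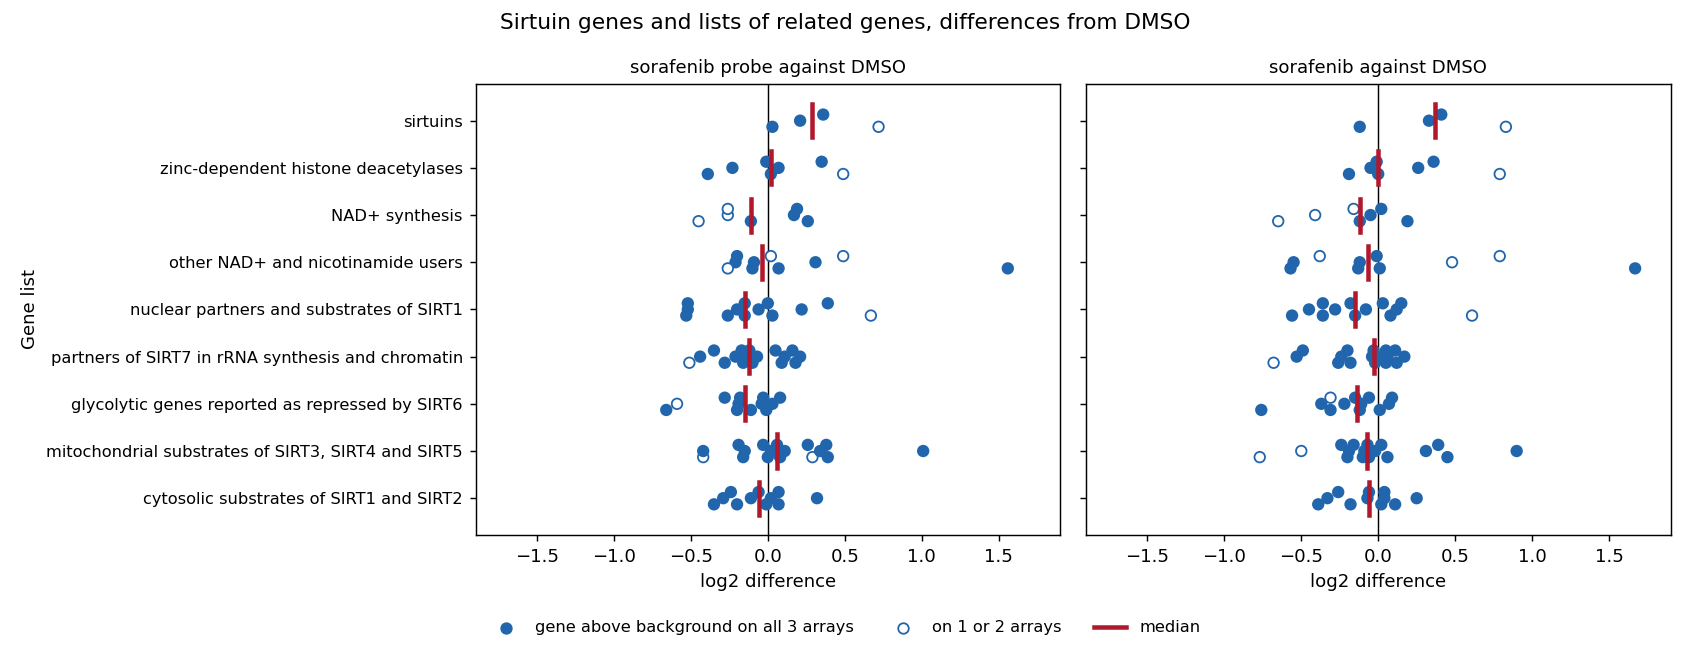
Log2 difference from DMSO of each measured gene of the sirtuin family and of 8 lists of related genes, with the sorafenib probe on the left and sorafenib on the right. Filled points are genes above background on all 3 arrays, hollow points on 1 or 2, and the red bar is the median of the list, which is 0.29 and 0.37 for the sirtuins and lies between -0.15 and 0.06 for the others. The sirtuin median takes SIRT5 at its brighter probe and includes SIRT2, which passed the filter through the compounds alone. With the mean of each gene's probes above background it is 0.12 and 0.21.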

How the data were processed

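Total RNA of PLC-PRF-5 cells was extracted with TRIzol, made into biotinylated cRNA with the Ambion MessageAmp kit and hybridised to an Illumina beadchip. The authors deposited 1 table whose intensity values, although named non-normalized, are quantile normalized with a floor of 1. The detection p-value that the authors deposited beside each of them has steps of 1 in 770. Another deposited table, used here, has intensities with the background subtracted but no normalization between arrays. Neither scanner software nor normalization method is given in the sources used. limma 3.58.1 in R 4.3.3 was used for normexp correction by detection p-value (offset of 16), quantile normalization and log2 values, and Python 3.11.15 with pandas 2.3.3 for the rest. These steps were tested on simulated data with changes larger than those of the sirtuins and in probes brighter than that of SIRT2. That test therefore does not cover the differences reported here. A probe entered if any array gave it a detection p-value under 0.01 (17427 probes), and a gene was its brightest such probe (10396 genes). Probes were named from the platform annotation (30113 with 1 symbol, 8 with several, 17202 not listed) and updated through Entrez identifiers. For a bound, an array on which a gene was not well above background took the lowest level above background there, unless its own was higher. Differences were counted at 1.5-fold on these bounds. The 7 genes and all lists were chosen with earlier results of these data known. All sirtuin probes are named, with the 3 measured genes of largest mean absolute difference from DMSO in each other list and the 5 genes nearest to SIRT7. All measured genes of the marker lists are named as well. Coordinates are those of RefSeq's promoter table, and the build of the array was not used. For the marker lists, hepatocyte markers (4 measured) had medians of -0.07 with the sorafenib probe and -0.14 with sorafenib, and markers of other cell types (6 measured) had 0.04 and -0.11 (-0.10 and -0.17 with bounds). With 1 array per group no test between groups was possible, and the precision is limited by the number of arrays. Alternatives were the authors' quantile normalized table, an offset of 50, median scaling, no normalization between arrays, a detection limit of 0.05, no filter on detection, a filter that asks for all 3 arrays, probe means per gene, and other folds.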

Additional observations from a re-analysis of the deposited data

How the results depend on the processing

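No paired analysis was possible because each group holds 1 array, and for the same reason no array could be left out. The median log2 difference of the measured sirtuin genes kept its sign against DMSO under each of the 8 alternatives in background correction, offset, scaling, detection and probe choice, but its size did not hold. With sorafenib it was 0.37 and ran from 0.20 without normalization between arrays, and 0.21 with the mean of a gene's probes, to 0.45 with the authors' quantile normalized table. With the sorafenib probe it was 0.29 and ran from 0.12 with the mean of a gene's probes, and 0.13 without normalization, to 0.34 with that table. Between the compounds it ran from -0.11 to 0.03. Each alternative changed 1 step, so none left out SIRT2 and averaged the SIRT5 probes at once. Median scaling and no normalization moved the median of all genes by -0.07 and -0.16 with the sorafenib probe and by -0.11 and -0.19 with sorafenib. The number of sirtuin genes at least 1.5-fold higher with sorafenib, 1 by the steps used here, was 0 with an offset of 50, 0 with median scaling, 0 without normalization between arrays and 0 with detection required on all 3 arrays, which leaves out SIRT2. At a log2 difference of 0.32 it was 3 and at 2-fold 0. With the sorafenib probe the number was 0, and it was 1 with the authors' quantile normalized table, 1 with a detection limit of 0.05, where SIRT2 counts as above background with DMSO, and 2 at a log2 difference of 0.32. SIRT7, with 1 probe above background on all 3 arrays, could not change under the alternatives in detection and probe choice. With the authors' table, an offset of 50, median scaling and no normalization it stayed above 0. It ran from 0.25 to 0.51 with sorafenib and from 0.06 to 0.26 with the sorafenib probe. SIRT1 with the sorafenib probe changed sign with median scaling and without normalization between arrays. The median of all genes moved down in both cases. Beside the 1 array per group and the disagreement of the SIRT5 probes, signal is a further limit: 7 of the 12 sirtuin probes were not above background on any array.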
